A study of Mus musculus with 2 samples.

Results

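Mir132 and Mir212 are neighbouring microRNA (miRNA) genes of mouse chromosome 11. They were chosen by symbol, as the rows of the count tables that GENCODE M21 names Mir132 (ENSMUSG00000065537.2) and Mir212 (ENSMUSG00000065590.1), and they are 2 of 2202 miRNA genes in the tables. The series has 1 group: left cerebral cortex of B6CASTF1/J mice, the F1 cross between C57BL/6J and CAST/EiJ, aged 18 to 20 months, with no treatment named. It gave 2 libraries of RNA shorter than 30 nt, numbered as biological replicates 1 and 2. Both tissue samples point to a single donor record, so the SDs measure only the spread between these samples, some of which may be technical, and the binomial and Fisher p-values hold counting noise alone. The labels name both sexes for the same samples, and sex was not used. No young cortex and no stimulated cortex was measured, so genes were compared with each other and library with library.

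A miRNA is cut from the hairpin of a longer transcript and guides an Argonaute protein to messenger RNAs, mostly through its seed, bases 2 to 8. In neurons, activity raises transcription of the Mir212 and Mir132 locus through the transcription factor CREB, and both hairpins are processed from the same primary transcript. miR-132 is known for its effects on dendrite growth, spines and the response to light in visual cortex, and miR-212 has the same seed.

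The sequences are shown because the 3′ arms are alike over much of their length, the 5′ arms are less so, and the counts do not separate the arms. They are RefSeq entries on GRCm38.p6 (the mm10 assembly, plus strand of chromosome 11), both genes were found there, and both RefSeq hairpins equal the annotated GENCODE transcripts. In the hairpins the capitals mark the 5′ arm and the 3′ arm, and in the mature miRNAs they mark the seed.
Mir212 hairpin (chr11:75173388-75173478): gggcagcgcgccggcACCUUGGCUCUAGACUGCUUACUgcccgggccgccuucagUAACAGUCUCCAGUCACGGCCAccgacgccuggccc
Mir132 hairpin (chr11:75173682-75173747): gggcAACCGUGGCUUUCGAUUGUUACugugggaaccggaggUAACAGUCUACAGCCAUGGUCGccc
miR-212-3p: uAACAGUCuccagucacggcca
miR-132-3p: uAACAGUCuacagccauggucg
miR-212-5p: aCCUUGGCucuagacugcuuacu
miR-132-5p: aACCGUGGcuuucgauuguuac

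The 3′ arms carry the shared seed. miR-132-3p and miR-212-3p are both 22 bases long and identical at 17 positions, and their first 9 bases form an unbroken shared run. The 5 differences, counted from 1 at the 5′ end with the base of miR-132-3p first, are A10C, C14U, U17C, U20C and G22A. Among 1738 mature arms of 1058 genes in the RefSeq table, the seed AACAGUC occurred in these 2 arms and in no other. The 5′ arms have seeds of their own, and no other arm of the table carried either of them. The longest run that miR-132-5p shares with miR-212-5p, at any offset, is 5 bases.

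Reads of the 2 genes can be told apart by sequence. The longest run shared by the hairpins is 10 bases, so no stretch of 18 bases is common to both. Of 141767 annotated transcripts searched on both strands, none from another gene held an 18-base word of the Mir132 hairpin. The protein-coding gene 1700017B05Rik shares one such word with Mir212, at bases 74 to 91 of the hairpin, where the 3′ arm ends at base 77. No genome sequence was searched. Mir212 is the longer and more GC-rich hairpin, with 91 bases and 69.2% GC against 66 bases and 57.6% for Mir132. The GC content of Mir212 was above that of 97.2% of 1174 annotated hairpins with a Mir symbol, whose median was 50.9%. The predicted minimum free energy per base, a measure of how stably a hairpin folds, was -0.564 kcal/mol for Mir132 and -0.456 kcal/mol for Mir212, against a median of -0.408 kcal/mol. For the whole hairpin the order was the reverse, with -37.2 kcal/mol for Mir132 and -41.5 kcal/mol for Mir212. The value per base depends on the annotated length.

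Both hairpins lie in the first intron of the noncoding gene 1700016P03Rik (ENSMUSG00000085609.1, chr11:75172560-75177633, plus strand, 3 exons). Mir212 starts 828 bases after the start of this host gene and Mir132 1122 bases after it, with 203 bases between the hairpins. The intron is 1380 bases long, and the second exon begins 230 bases past the end of Mir132. No other miRNA gene is annotated within the host on its strand. Of the flanking protein-coding genes, Hic1 lies upstream on the minus strand, Ovca2 overlaps the last part of the host on the minus strand, and Dph1 follows on the minus strand.

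**Figure D1:**
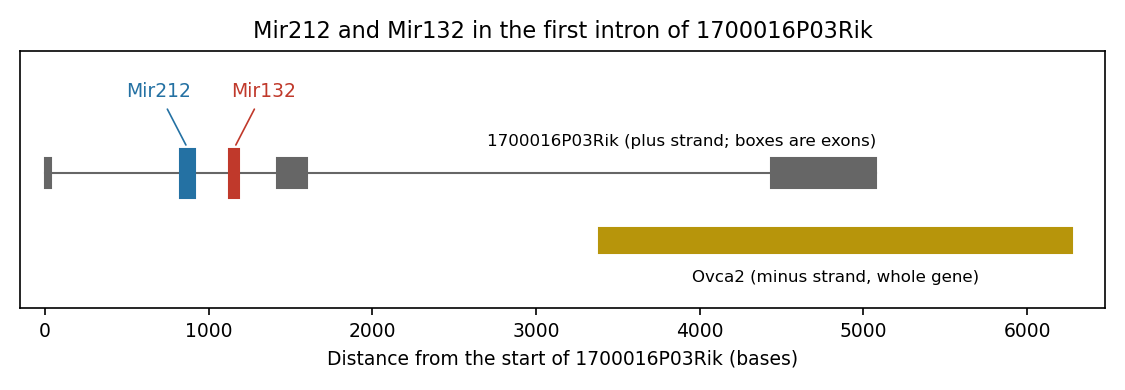
Map of the locus, with distance from the annotated start of 1700016P03Rik in bases on the horizontal axis. Grey boxes are host exons, the blue and red boxes are the hairpins of Mir212 and Mir132, and the gold box is Ovca2 on the other strand. The hairpins sit 203 bases apart within the first intron.

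By assigned reads, Mir132 was among the most abundant miRNA genes of both libraries. Mir212 was present at a level lower by a factor of 49.3 to 75.8. Reads with several mapping places, 35.6% of all reads in replicate 1 and 44.8% in replicate 2, are listed apart from the genes. A miRNA gene with copies elsewhere can thus be undercounted, and the levels and ranks hold among assigned reads only. Mir132 had 165873 reads in replicate 1 and 192314 in replicate 2. In CPM, the usual scaling of reads to a fixed library total, here the reads on the annotated strand of miRNA genes, replicate 1 stood at 69646 (95% exact binomial interval 69323 to 69970). Replicate 2 stood at 43349 CPM (interval 43160 to 43539). Replicate 1 was the higher library, and the intervals, which cover counting error only, did not overlap. Its mean was 56498 ± 18595 CPM (SD, n = 2). Mir212 had 2189 reads in replicate 1 and 3901 in replicate 2, or 919 CPM (881 to 958) and 879 CPM (852 to 907). Here the intervals of the libraries overlapped, and the mean was 899 ± 28.1 CPM (SD, n = 2). Neither gene had a read on the opposite strand in either library, so the column that counts both strands together held the same reads. A count of 0 allows up to 1.26 CPM in replicate 1 and 0.676 CPM in replicate 2, for counting error only.

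By rank of assigned reads, Mir132 was number 3 of all miRNA genes in replicate 1 and number 5 in replicate 2. Mir212 was number 97 and number 103. In the order of mean CPM, Mir132 was number 4. The ranges of its libraries overlapped those of Mirlet7b above it (76034 ± 9863 CPM) and Mirlet7i below it (51219 ± 5432 CPM), so its order against these let-7 genes, growth-restraining miRNAs of differentiated cells, was not distinguishable beyond the spread. They also overlapped the range of Mirlet7d, at 18914 to 45011 CPM. They did not overlap those of Mirlet7g, Mir139, Mirlet7e and Mir127. Mir212, number 102 by mean, stood among genes it could not be ordered against: the ranges of Mir409, Mir15a, Mir323 and Mir484 above it and of Mir130a, Mir540, Mir300 and Mir181b-2 below it all overlapped its own. The means of these 8 genes ran from 958 CPM for Mir409 to 782 CPM for Mir181b-2.

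**Figure D2:**
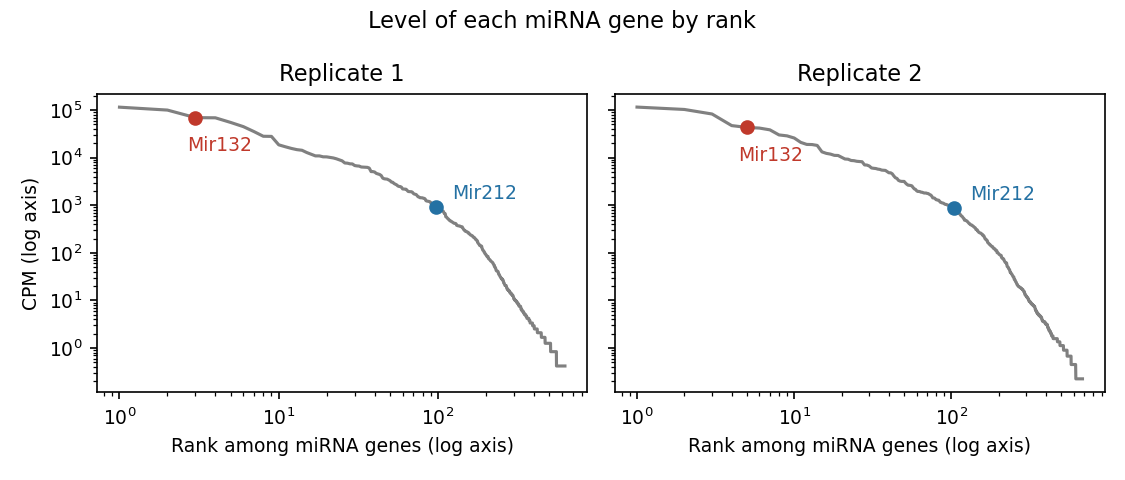
Level in CPM (log axis) against rank (log axis) of every miRNA gene with a read, in replicate 1 at the left and replicate 2 at the right. Mir132 (red) sits near the top of the grey curve at ranks 3 and 5, and Mir212 (blue) at ranks 97 and 103, where the curve starts to steepen.

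Within a library, the ratio of the reads of Mir132 and Mir212 does not depend on how the library is scaled. Replicate 1 had 75.8 reads of Mir132 per read of Mir212 (exact 95% binomial bounds 72.6 to 79.1). Replicate 2 had 49.3 (bounds 47.8 to 50.9). The mean of both libraries was 62.5 ± 18.7 (SD, n = 2). The ratio was 1.54 times higher in replicate 1 (95% interval 1.46 to 1.62), and a two-sided Fisher's exact test on the 4 read counts gave p = 3.66e-59. That test allows for counting noise alone and compares these libraries, not conditions. A read of such short RNA was taken as a whole mature molecule. The arms of both genes are 22 or 23 bases long, so the levels were not divided by length. The ratio is one of reads, and whether both miRNAs enter a library equally well was not tested. Per base of hairpin, the ratio was 104 in replicate 1 and 67.97 in replicate 2.

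Because the 3′ arms share a seed, the reads of both genes were also summed. The sum was 70565 CPM in replicate 1 and 44228 in replicate 2, which is 7.06% and 4.42% of reads assigned to miRNA genes. Mir212 supplied 1.30% of this sum in replicate 1 and 1.99% in replicate 2. A gene's count joins its 5′ and 3′ arms, so the sum is an upper bound for the assigned reads that carry this seed.

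Whether the 2 genes differed between the libraries was asked with an exact two-sided binomial test, run on the 472 genes whose summed reads reached 10. Library sizes were scaled by TMM, trimmed means of log ratios. Mir132 was higher in replicate 1 by a log2 ratio of 0.71 ± 0.0048 (counting SE), with an adjusted p too small for the computer's number format. With this scaling Mir212 was higher there by 0.092 ± 0.039 (adjusted p = 0.0349 by the binomial test with Benjamini-Hochberg adjustment). The test called 52.1% of all genes, 24.6% as higher in replicate 1 and 27.5% as higher in replicate 2, since it allows for counting noise alone. The call of Mir212 depended on the scaling: with library totals its log2 ratio was 0.064 (binomial adjusted p = 0.161), and with TMM over all annotated genes it was -0.0073 (binomial adjusted p = 0.916). Mir132 stayed above 0 by 0.61 to 0.79 under every scaling tried. In edgeR's exact test of 1 library against 1, the common coefficient of variation, 0.343, was estimated from the same 2 libraries, so the spread it allows for is the tested difference itself and a gene of typical difference cannot pass. Its adjusted p of 1 for both genes therefore says nothing on whether they differ. That test called 0.424% of the genes, Mir26a-1 and Mir301, which are named because they are the only ones called.

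Set beside all tested genes, the log2 ratio of Mir132 was larger in size than that of 315 of the other genes and smaller than that of 156. Among the 95 genes of at least 1000 mean CPM, 20 had a larger one. The ratio of Mir212 was smaller in size than that of 431 tested genes. The median absolute log2 ratio was 0.45 over all tested genes. Among genes of at least 1000 mean CPM, those with the log2 ratio nearest to that of Mir132 were Mir411 (0.71), Mir335 (0.69), Mir99a (0.68), Mir379 (0.66) and Mir98 (0.64). Nearest to Mir212 were Mir770 (0.084), Mir191 (0.12), Mir760 (0.13), Mir181d (0.039) and Mir361 (0.016). This likeness rests on 1 ratio from 2 libraries per gene.

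**Figure D3:**
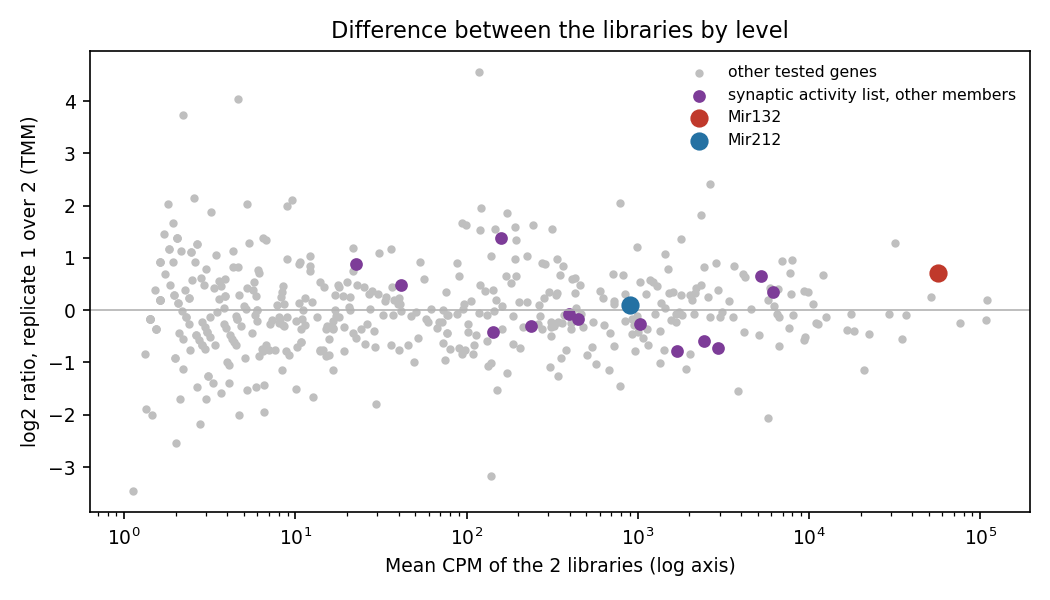
Log2 ratio of replicate 1 over replicate 2 after TMM scaling against mean CPM (log axis), 1 point per tested gene. Mir132 (red) lies at 0.71 at the right edge of the plot and Mir212 (blue) at 0.092, with the other tested members of the synaptic activity list in purple and the remaining genes in grey.

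To see whether so unequal a level is common between adjacent miRNA genes, Mir212 and Mir132 were set beside the other pairs. Adjacent genes on the same strand, at most 10 kb apart and with at least 10 reads in total each, formed 110 pairs. The level difference of Mir212 and Mir132 was 5.97 on the scale of log2(mean CPM + 1), number 9 of these pairs. The median pair differed by 2.93 (quartiles 1.14 and 4.49). The pairs with the largest differences were Mir544 and Mir382 (10.33), Mir29a and Mir29b-1 (8.11), Mir323 and Mir758 (7.02), Mir487b and Mir539 (6.99), and Mirlet7d and Mirlet7f-1 (6.86). Of the 8 pairs above Mir212 and Mir132, 7 held a locus whose hairpin shares 18 bases with another miRNA gene. Over all 110 pairs, 41 held such a locus. Reads with several mapping places are listed apart from the genes, and their effect on the pair differences was not tested. Among the 69 pairs with no such locus, a subset formed after the values were seen, only Mir544 and Mir382 differed more, and Mir544 had a mean of 4.08 CPM. The level difference was 6.24 in replicate 1 and 5.62 in replicate 2.

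The difference between the log2 ratios of Mir132 and Mir212, 0.62, was not large for a neighbouring pair. The median over the 110 pairs was 0.67, and 52 pairs had a smaller value. Over the 21 pairs in which both genes reached 500 mean CPM, a minimum also set after the values were seen, the median was 0.57 and 9 pairs had a larger value. In level, only the let-7 pair Mirlet7c-2 and Mirlet7b (6.07) differed more among these 21.

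**Figure D4:**
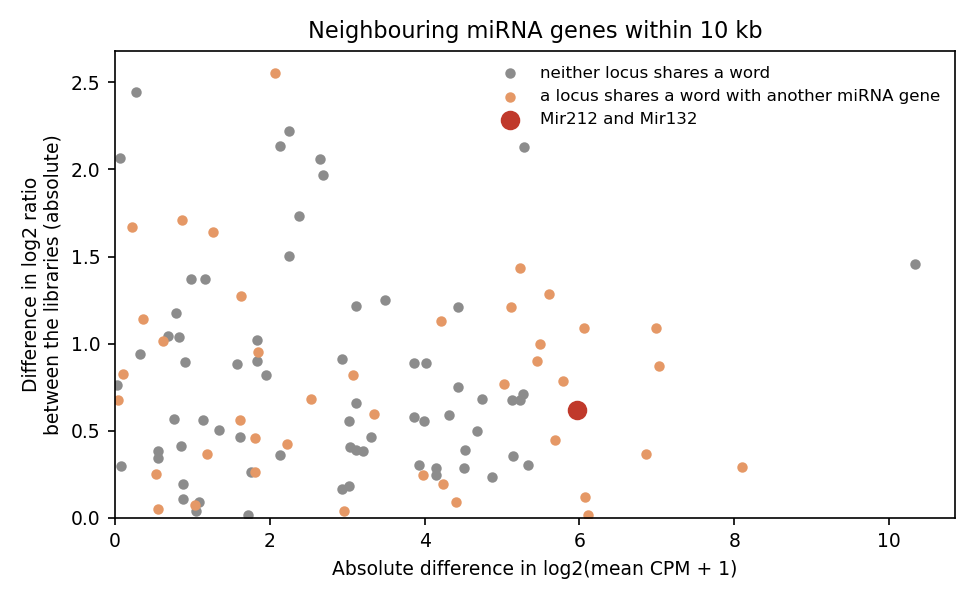
Each point is a pair of adjacent miRNA genes, with the absolute difference in log2(mean CPM + 1) on the horizontal axis and the absolute difference of their log2 ratios between the libraries on the vertical axis. Orange pairs hold a locus that shares 18 bases with another miRNA gene. Mir212 and Mir132 (red) lie far to the right at 5.97 and near the middle of the vertical spread at 0.62.

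A list of 19 miRNA genes tied to synaptic activity or plasticity places the pair among its peers. Mir132 held most of the list's assigned reads. Members that share hairpin sequence with another miRNA gene, the miR-124 and miR-138 genes, can be undercounted here. The list's sum was 91519 CPM in replicate 1 and 65228 in replicate 2. Without Mir132 and Mir212 it was 20954 CPM and 20999 CPM. Next came Mir137, a regulator of presynaptic genes, at 6848 CPM in replicate 1 and 5494 in replicate 2. Mir379, of the large imprinted cluster on chromosome 12, stood at 6387 CPM and 4130 CPM. Mir212 was number 8 of the list by mean, close to Mir381 at 921 CPM and 1126 CPM. Mir134, which represses Limk1 in dendrites, stood at 419 CPM and 481 CPM, and its cluster neighbour Mir329 at 380 CPM and 408 CPM.

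Of the list's 19 genes, 15 had enough reads to be tested and 14 passed the binomial test, 7 in each direction (5 higher in replicate 1 and 8 in replicate 2 with TMM over all genes), where 52.1% of all tested genes passed. The share rose with abundance: of the 95 genes of at least 1000 mean CPM, 91 passed. Its median log2 ratio was -0.074, and that of all tested genes was -0.075. Mir410 (1.37), Mir182 (0.88), Mir132, Mir379 (0.66), Mir183 (0.47), Mir137 (0.35) and Mir212 were called higher in replicate 1. The call of Mir212 did not hold with library totals, with no read minimum or with TMM over all genes, where its sign also turned. Mir138-2 (-0.79), Mir138-1 (-0.72), Mir485 (-0.58), Mir184 (-0.41), Mir188 (-0.30), Mir381 (-0.26) and Mir134 (-0.17) were higher in replicate 2, and Mir329 (-0.074) was not called. Mir138-1 and Mir138-2, copies of a miRNA that limits spine size, share hairpin sequence with each other or another miRNA gene, so their counts are uncertain. The untested members were Mir96, with 3 reads in replicate 1 and 0 in replicate 2, and the 3 genes of miR-124, a hallmark of neurons. The reads in replicates 1 and 2 were 2 and 4 for Mir124a-1, 2 and 2 for Mir124a-2, and 3 and 0 for Mir124a-3. All 3 share hairpin sequence with another miRNA gene.

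**Figure D5:**
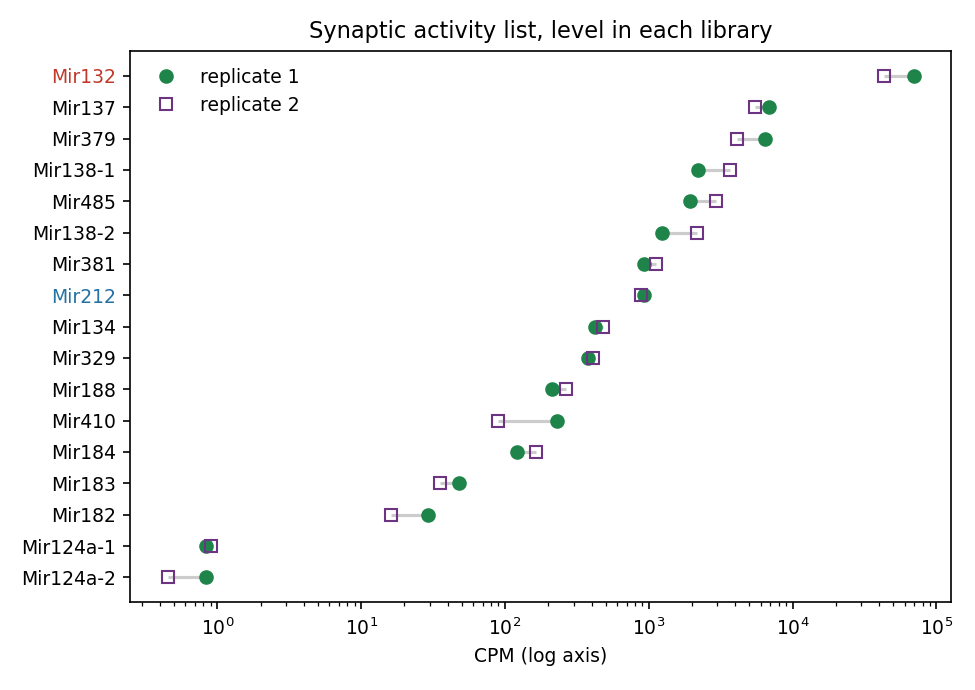
CPM (log axis) of the members of the synaptic activity list that had a read in both libraries, with filled circles for replicate 1 and open squares for replicate 2. Mir132 stands apart at the right, at 69646 and 43349 CPM, while the symbols of Mir212 nearly coincide at 919 and 879 CPM.

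Lists of miRNAs tied to cell types were checked for shifts beside that of Mir132. Their counts of calls stand against 24.6% of all tested genes called higher in replicate 1 and 27.5% in replicate 2, and against 91 of 95 called in either direction among abundant genes, so nothing is read from them. Of genes that mark neurons, as cortex should hold, Mir128-1 was abundant (14354 CPM in replicate 1, 19064 in replicate 2), and the miR-124 genes were near 0 as above. The neuron list of 12 genes summed to 41641 CPM in replicate 1 and 51916 in replicate 2. Its miR-124, miR-128, miR-138 and miR-218 genes share hairpin sequence with another miRNA gene, so these sums are uncertain. Of the neuron list's 9 tested genes, Mir137 passed as higher in replicate 1 and 6 as higher in replicate 2. The 6 astrocyte genes summed to 39534 and 47030 CPM, with 2 called higher in replicate 1 and 4 in replicate 2. Among them, Mir23a, Mir29c, Mir29b-1 and Mir29b-2 share hairpin sequence with another miRNA gene, so these sums are uncertain too. The 4 oligodendrocyte genes summed to 4684 and 3502 CPM, with 1 of 3 tested called in each direction. The same uncertainty holds for these sums, through Mir219a-1, Mir219a-2 and Mir219b. The endothelial Mir126a stood at 17007 and 18138 CPM, with no read of Mir126b. The 4 myeloid and lymphoid genes summed to 1909.6 and 1869.8 CPM, with Mir142 (1.63) the only one of 4 called. The 4 genes of choroid plexus and cilia summed to 1084 and 738 CPM, with 3 of 4 called higher in replicate 1. The liver gene Mir122, at 58.4 and 75.96 CPM, and the 6 muscle genes, at 29.4 and 27.3 CPM in sum with no read of Mir1a-1, were low by assigned reads. Mir1a-1, Mir1a-2 and Mir1b share hairpin sequence with another miRNA gene and can be undercounted, so the muscle sums are uncertain. Multimapping reads made up 35.6% of all reads in replicate 1 and 44.8% in replicate 2. The part of cell makeup or of the mapping in the difference of Mir132 was not tested. In bulk tissue, more cells that express a gene and more RNA per cell cannot be told apart.

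The shared seed pairs with the bases GACTGTT of a messenger RNA, and an A after them makes the 8-base site GACTGTTA. Only the transcript strand was searched, in the longest annotated 3′ untranslated region (UTR) of each protein-coding gene. No messenger RNA was measured, so the matches show what the seed can pair with and nothing about repression. Of 13 genes reported as targets of miR-132 or miR-212, Foxo3, Ep300, Paip2 and Zeb2 held the 8-base site, or 30.8%. Over all 20832 genes with a 3′ UTR of at least 30 bases, 494 held it, or 2.37%. The 7-base match, which includes the 8-base one, was in 12 of the 13 genes and in 10.8% of all genes. Ache, the acetylcholinesterase gene, was the one without it. Its searched UTR, 228 bases, was the shortest of the 13, and 2.42% of genes of similar UTR length held the 7-base match. The listed genes have longer 3′ UTRs, with a median of 1631 bases against 975. Among genes whose UTR length lay within 20% of each listed gene's, a mean of 4.30% held the 8-base site and 18.6% the 7-base match. Such genes are often proposed as targets because they hold a seed match, so the shares are not independent of how the genes came to be listed.

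One site in each of 4 of these genes is shown to make the pairing visible, with the match in capitals, read on the transcript strand (mm10, GENCODE M21). Arhgap32 encodes a GTPase-activating protein of spines, Foxo3 and Zeb2 encode transcription factors, and Ep300 encodes a histone acetyltransferase.
Foxo3 (chr10:42186156-42186183, minus strand): cctaacccagcagaGACTGTTAgcagcc
Ep300 (chr15:81652002-81652029, plus strand): tggatcactgtataGACTGTTAaatttg
Zeb2 (chr2:44987240-44987267, minus strand): ctaacctcaagaggGACTGTTAaataca
Arhgap32 (chr9:32261178-32261204, plus strand): tctgctggacagtgGACTGTTctattt
The first 3 carry the 8-base site and Arhgap32 the 7-base match, 44 bases into its UTR. Foxo3 has 2 matches, and its 7-base one is not shown. Because miR-132-3p and miR-212-3p are identical over their first 9 bases, each of these matches pairs equally with the seeds of both, while the bases from position 10 on can pair differently.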

How the data were processed

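For each of 2 libraries the authors deposited whole-number read counts per miRNA gene, not normalized, in separate columns by strand. Per the file headers deposited beside them, the build is mm10 and the genes are those of GENCODE M21. No aligner or trimming step is named in the sources used here. The gene-strand column was used. It summed to 2381663 of 8041772 reads in replicate 1 and 4436398 of 12239366 in replicate 2. The 4 summary lines (unmapped, multimapping and unassigned reads) were left out of totals and tests.

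CPM used these sums. TMM factors came from edgeR 4.0.16 (R 4.3.3) over genes whose summed reads reached 10. Python 3.11.15 with scipy 1.17.1 gave the binomial and Fisher tests, with a threshold of 0.05 after Benjamini-Hochberg adjustment. Log2 ratios added 0.5 reads to each count. The binomial test was checked on simulated counts with known folds that held counting noise alone. That check therefore says nothing on spread beyond counting noise. In 1 group, no quasi-likelihood test exists. Hairpins were folded with RNAfold 2.7.2.

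The members, lists and tests were chosen with earlier results of these data known. Named are both genes, genes sharing a seed, the 4 genes above and below each in mean CPM, the 5 nearest in log2 ratio with at least 1000 mean CPM, the list members, the 5 most unequal neighbouring pairs and flanking genes. Other genes were named after their values were seen. Alternatives covered the count column, denominators, size factors, read minimums, the test, pair distances, the seed match and each library alone. 1 planned target gene is not reported here, so the shares of target genes cover the other 13 and not the whole planned list.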

Additional observations from a re-analysis of the deposited data

How the results depend on the processing

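With all reads as the denominator of CPM, in place of miRNA reads, the mean was 18170 for Mir132 and 295 for Mir212. With the column of both strands, whose total is smaller, Mir212 stood at 982 CPM. Without 1 library, the mean ran from 43349 to 69646 CPM for Mir132, from 879 to 919 CPM for Mir212, and their read ratio from 49.3 to 75.8. The log2 ratio of Mir212 between the libraries was 0.064 with library totals (binomial adjusted p = 0.161), 0.092 with no read minimum (0.0525, with more genes tested) and -0.0073 with TMM over all genes, an alternative chosen after seeing the data. Under edgeR's exact test the log2 ratios were 0.71 for Mir132 and 0.092 for Mir212, each with an adjusted p of 1, and 2 genes were called in place of 246, 1 in each direction in place of 116 and 130, with 29 at an unadjusted p under 0.05. Its dispersion comes from the 2 libraries it compares, so this says nothing about stability. The other scalings and read minimums called 233 to 250 genes, and the column of both strands 224. The median log2 ratio of the synaptic activity list, -0.074, was 0.00041 with RLE size factors and -0.17 with TMM over all genes. A change of size factors moves the log2 ratio of every gene by the same amount. With RLE size factors the log2 ratio was 0.79 for Mir132 and 0.17 for Mir212. The list median thus moved together with the median of all tested genes. The median level difference of neighbouring pairs, 2.93, was 2.67 within 1 kb and 2.46 with at least 50 reads. The difference of Mir212 and Mir132 was then number 5 and number 8. Within 50 kb it was number 11, and with the column of both strands number 10. These settings can change which pairs are compared, so the ranks do not share a base. The seed match was in 12 reported targets with 7 bases in place of 4 with 8. With 2 libraries of 1 group there are no groups to pair. No paired analysis was possible because the replicate numbers mark the samples of a single group.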
